A study of Arabidopsis thaliana with 12 samples.

Results

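Gene expression in root tips of the Arabidopsis thaliana triple mutant scl5 scl21 pat1 was compared with that of the Col-0 wild type on medium without a DNA-damaging agent. The comparison uses 6 of the 12 RNA-seq libraries of the series, 3 from triple mutant plants on control medium and 3 from Col-0 plants on control medium, chosen by their labelled genotype and treatment. The other 6 libraries, 3 of the triple mutant and 3 of Col-0 on bleomycin, serve as separate samples in which the same genotype difference can be read. They share 1 statistical model with the control libraries, so the samples are separate and the tests are not fully so. The triple mutant carries mutations in SCL5, SCL21 and PAT1 together, and the labels name neither the alleles nor the number of lines. For each library about 100 seeds were sown on a nylon mesh over 1/2 MS medium with 1% agar. At 7 days the mesh went onto either plain medium or, for 24 h, medium holding 0.5 ug/ml bleomycin, an agent that breaks DNA. RNA was taken from root tips of 0.2 cm, which hold many cell types, and in such bulk samples fewer cells of a type and less RNA per cell cannot be told apart.

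GRAS proteins are plant transcriptional regulators named after GAI, RGA and SCARECROW. The PAT1 branch of the family, to which SCL5, SCL21 and PAT1 belong, takes its name from a role of PAT1 in phytochrome A light signalling in Arabidopsis. Members of this branch bind ERF115, an ethylene response factor that appears beside dying cells in the root and takes part in their replacement. DOF3.4, also called OBP1, is a DOF zinc finger transcription factor linked to cell division, and CYCD3;3 is a D-type cyclin that drives entry into the cell cycle. The comparison on control medium asks how the root tips of the mutant differ from the wild type when no DNA-damaging agent is given.

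Libraries held 36.3 to 38.6 M estimated reads in the triple mutant and 36.6 to 40.9 M in Col-0. Replicates of a group differed beyond sampling noise, with chi-square over degrees of freedom between 18.6 and 65.7 in the 6 control libraries. Triple mutant control library 3 stood apart from the other control libraries: on the first principal component, which held 48.5% of the variance, it lay at 141.1 and the other 5 between -35.1 and -19.1. That library had no read at 381 loci for which every other library had 10 or more, and the same count was 0 to 35 for the other libraries of the series. Values without it are given where a call rests on it. Of the 37138 loci, 21561 had enough reads to be tested.

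The triple mutant and Col-0 differed at very few loci on control medium. At an adjusted p under 0.05 in the edgeR quasi-likelihood test, which is what called means below, 6 of 21561 genes passed, or 0.0278% of those tested. Lower in the triple mutant were 5 loci (0.0232%), SCL5, SCL21, PAT1, AT2G04900 and AT5G33395, and 1 locus (0.00464%), AT1G64795, was higher. Among the 6 are the 3 mutated genes, and AT2G04900 overlaps one of them. At an unadjusted p under 0.05 there were 1034 genes, 4.8% of those tested. The median log2 fold change over all genes tested, triple mutant over Col-0, was -0.01, and 49.0% of the genes lay above 0.

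**Figure D1:**
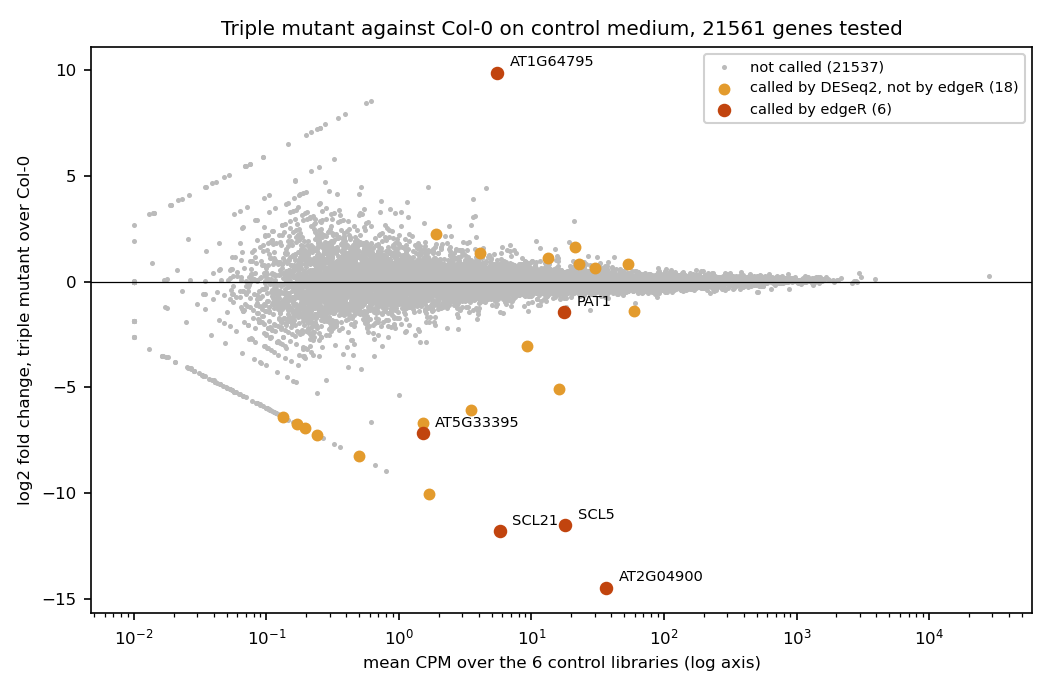
Log2 fold change of the triple mutant over Col-0 on control medium (vertical axis) against the mean CPM over the 6 control libraries (horizontal log axis) for the 21561 genes tested. The 6 genes called by edgeR are named in red, and the 18 called by DESeq2 and not by edgeR are orange.

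The mutated genes checked the labels. Values are CPM, counts scaled to the library size after TMM, in the order of the replicate numbers. SCL5 (AT1G50600), a scarecrow-like GRAS gene, had 0, 0.026 and 0 CPM in the triple mutant, against 37.7, 34.7 and 35.3 CPM in Col-0. That was 1 read over the 3 triple mutant libraries and 4233 reads over the 3 Col-0 libraries, so the Col-0 level was 4034 times the triple mutant level (95% interval 724 to 159400, exact, counting error only). No triple mutant library came near any Col-0 library, and the log2 fold change was -11.53 (SE 0.42, edgeR adjusted p = 1.31e-08). With 1 read in the triple mutant, the size and SE of this value depend on the fit. The counts alone give the wider interval above.

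SCL21 (AT2G04890), the second scarecrow-like gene, was at 0 CPM in every triple mutant library, against 12.5, 12.4 and 9.6 CPM in Col-0. With 3 reads over the group as the floor, it was at least 429.8-fold lower in the triple mutant (edgeR adjusted p = 3.42e-05). PAT1 (AT5G48150) was lower but not at 0, with 9.34, 9.52 and 9.72 CPM in the triple mutant, against 26.1, 25.9 and 25.5 CPM in Col-0. The replicates of each genotype were close together and far from those of the other. The log2 fold change of PAT1 was -1.44 (SE 0.19, 95% interval -1.85 to -1.03, edgeR adjusted p = 0.0171). This call was lost when any 1 of 5 control libraries was left out, triple mutant 1, 2 or 3 or Col-0 2 or 3, with adjusted p between 0.0874 and 0.176 and log2 fold changes between -1.45 and -1.43.

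Per length, in TPM summed over the transcripts of a locus, SCL5 stood at 0.0045 ± 0.0078 in the triple mutant and 20 ± 1.9 in Col-0 (SD, n = 3 each, as for all mean values below). PAT1 stood at 5.33 ± 0.48 TPM in the triple mutant and 16.9 ± 1.3 TPM in Col-0. SCL21 was listed at 0 TPM in the triple mutant and stood at 7.19 ± 1.2 TPM in Col-0, the lowest of the 3 mutated genes in the wild type.

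The remaining PAT1 reads fell on the same transcripts as in Col-0, in lower numbers. Transcript 4 of PAT1 had 252, 270 and 253 estimated reads in the triple mutant, against 550, 515 and 452 in Col-0. Transcript 3 had 75, 86 and 123 reads in the triple mutant, against 508, 325 and 464 in Col-0. Both were below every Col-0 library in every triple mutant library. Transcript 1 had 0, 10 and 0 reads in the triple mutant, against 6, 125 and 96 in Col-0, and transcript 2 had 0 reads in all 12 libraries. Such reads are divided among transcripts by estimation, and none of the PAT1 transcripts passed the edgeR test on single transcripts, in which 4 of 35081 transcripts (0.0114%) were called.

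**Figure D2:**
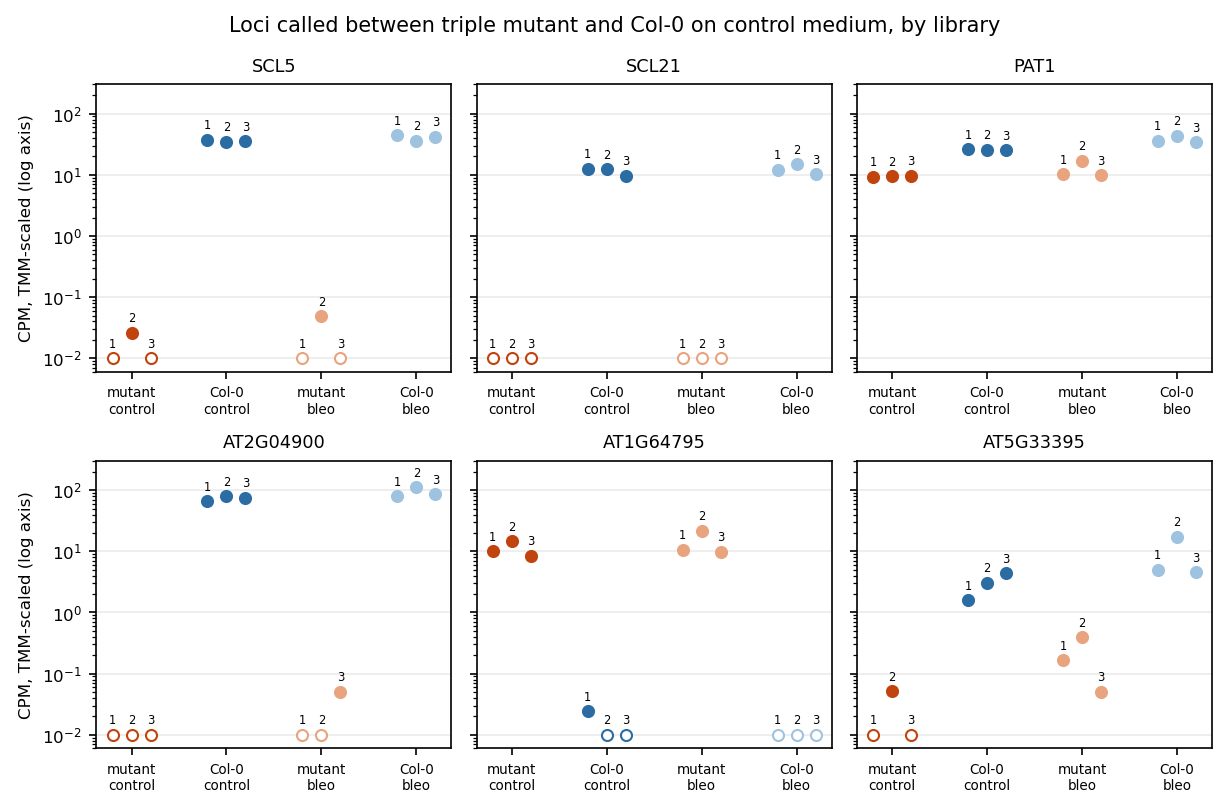
CPM (log axis) of the 6 called loci in each library, numbered 1 to 3, in the triple mutant and in Col-0 on control medium and on bleomycin (bleo). Open circles at the bottom mark libraries with 0 reads. The triple mutant and Col-0 points do not overlap at any of the 6 loci in either medium. The loci were chosen by their call on the control libraries, where 11.2% of all genes tested did not overlap. The share on bleomycin was not computed.

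AT2G04900, annotated as an uncharacterized protein, had 0 reads in all 3 triple mutant libraries, against 66.0, 78.9 and 75.4 CPM in Col-0. Its log2 fold change, -14.47 (SE 0.46), was the lowest of all genes tested. With 0 reads in a group, the size and SE of this value depend on the fit. With 3 reads over the group as the floor, AT2G04900 was at least 2737-fold lower in the triple mutant (edgeR adjusted p = 4.85e-08). In the RefSeq annotation AT2G04900 lies on the opposite strand to SCL21, and the 2 gene spans share 124 bases. Exon 1 of its transcript 1 shares 110 bases with exon 1 of SCL21. The labels name no strand-marking library kit, and without strand the reads of the 2 genes cannot be told apart in the shared bases. Over the 3 Col-0 libraries AT2G04900 held 8616 reads and SCL21 held 1353, and both were at 0 in the same 3 triple mutant libraries.

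Other neighbours of the mutated genes did not pass the test. Within 25 loci on each side, 15 neighbours of SCL21 were tested and AT2G04900 was the 1 called. With AT2G04900, 3 of the 15 had an unadjusted p under 0.05, against 4.8% of all genes tested. Of 32 tested neighbours of SCL5 and 38 of PAT1 none was called by edgeR, with 2 at an unadjusted p under 0.05 beside each gene. Log2 fold changes of uncalled neighbours ran from -1.22 to 0.66 for SCL21, -3.22 to 0.45 for SCL5 and -0.53 to 0.52 for PAT1.

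AT1G64795, annotated as an uncharacterized protein, was the 1 locus called higher. It had 10.1, 14.7 and 8.43 CPM in the triple mutant, against 0.0245, 0 and 0 CPM in Col-0. That was 1243 reads over the triple mutant libraries and 1 read over the Col-0 libraries, a triple mutant level 1304 times that of Col-0 (95% interval 233.7 to 51550, exact, counting error only; edgeR adjusted p = 8.89e-05). The groups were far apart in each library.

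AT1G64795 overlaps ILA (AT1G64790, ILITYHIA) on the opposite strand, with 270 bases shared by the gene spans. ILA encodes a HEAT repeat protein that takes part in translational control and defence. Exon 1 of AT1G64795 shares 142 bases with exon 2 of ILA transcript 2 in the RefSeq annotation, and no exon base with ILA transcripts 1 and 3. ILA transcript 2 had 3132, 3233 and 2012 estimated reads in the triple mutant, against 0, 0 and 0 in Col-0. Transcript 1 had 3365, 4359 and 4333 reads in the triple mutant, against 10642, 8094 and 9003 in Col-0. Transcript 2 thus took 48.2%, 42.6% and 31.7% of the ILA reads in the triple mutant, and none in Col-0 on control medium. On bleomycin its share was 58.3%, 59.9% and 44.6% in the triple mutant, against 0.3%, 0% and 0% in Col-0.

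Summed over its transcripts, ILA itself was not called. It had 186, 198 and 164 CPM in the triple mutant, against 261, 224 and 227 CPM in Col-0 (log2 fold change -0.38, SE 0.14, unadjusted p = 0.0181, edgeR adjusted p = 0.96). In the test of single transcripts AT1G64795.1 was called (edgeR adjusted p = 0.0288), and ILA transcript 2 was not (adjusted p = 0.152). Without a strand-marking kit, reads of the shared 142 bases from AT1G64795 and from ILA transcript 2 cannot be told apart. ILA is named here after its values were seen.

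**Figure D3:**
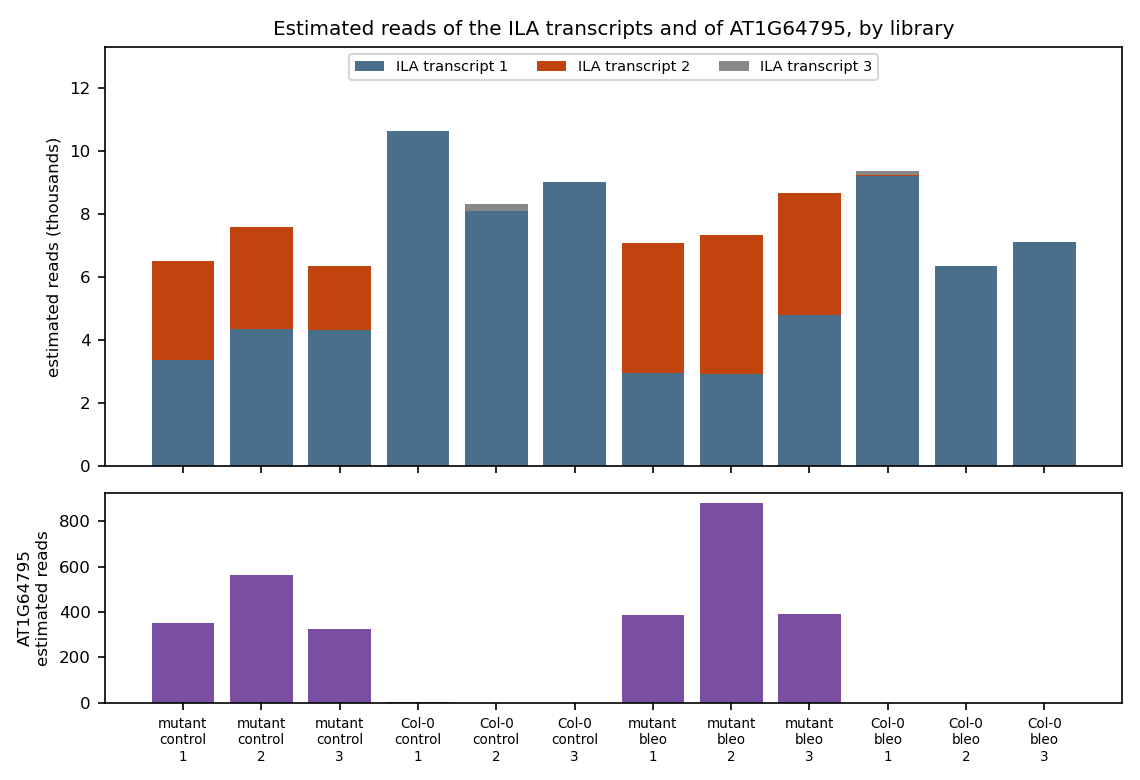
Estimated reads of the 3 ILA transcripts, stacked (top) and of AT1G64795 (bottom) in each of the 12 libraries, not scaled for depth. Transcript 2 (red) and AT1G64795 appear in the 6 triple mutant libraries and are at or near 0 in the 6 Col-0 libraries.

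AT5G33395, a pseudogene whose mean lies under the 2 CPM required of named genes, is given because it was called and was chosen after its values were seen. It had 0, 0.052 and 0 CPM in the triple mutant, against 1.57, 3.07 and 4.38 CPM in Col-0. That was 2 reads over the triple mutant libraries and 352 over the Col-0 libraries, a Col-0 level 167.7 times that of the triple mutant (95% interval 46.1 to 1390, exact, counting error only). The edgeR adjusted p was 0.0472. It lay between 0.142 and 0.428, above the threshold, without any 1 control library other than Col-0 library 1. The next locus in the annotation, AT5G33390, a glycine-rich protein gene 1009 bases away on the same strand, had 0 reads in all triple mutant libraries and 18, 13 and 26 reads in Col-0. It was not called (edgeR adjusted p = 0.362).

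The same differences were read in the bleomycin libraries. These were not contrasted in the comparison on control medium, but they shared its model, filter, scaling and estimate of spread. There, too, 6 genes were called (0.0278%), and 5 of the 6 genes called on control medium were among them, in the same direction. With the replicate number as a block, 10 genes were called on bleomycin, all 6 of those called on control medium among them and QQS, AT4G04223, AT5G14180 and AT5G35940 besides, and DESeq2 called 22. SCL5 was at 0, 0.049 and 0 CPM in the triple mutant on bleomycin, against 44.1, 36.0 and 41.8 CPM in Col-0 on bleomycin. PAT1 was at 10.2, 16.9 and 9.76 CPM in the triple mutant on bleomycin, against 36.1, 43.3 and 34.2 CPM in Col-0 on bleomycin (log2 fold change -1.62, SE 0.19, edgeR adjusted p = 0.00449). AT1G64795 was at 10.7, 21.6 and 9.84 CPM in the triple mutant on bleomycin and at 0 reads in all 3 Col-0 bleomycin libraries, at least 552.4-fold higher in the triple mutant.

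AT2G04900 had 2 reads over the triple mutant bleomycin libraries and 10823 over those of Col-0. SCL21 had 0 and 1450 reads over the same libraries. AT5G33395 missed the threshold on bleomycin, with 0.165, 0.392 and 0.05 CPM in the triple mutant, against 4.98, 17 and 4.51 CPM in Col-0 (edgeR adjusted p = 0.0573, and 0.00631 with the replicate number as a block, by which it was called). No test of the genotype difference between media passed: 0 of 21561 genes were called by edgeR for the interaction of genotype and bleomycin, with 377 (1.75%) at an unadjusted p under 0.05, and DESeq2 and limma voom called 0 as well. For the 6 called genes the unadjusted interaction p lay between 0.152 for AT2G04900 and 1.00 for SCL21.

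By a rule on reads, chosen after the data were seen, 1 locus was present in the triple mutant and absent in Col-0 on control medium, with at least 10 reads in all 3 libraries of one genotype and at most 3 in all 3 of the other, and 10 loci showed the reverse. On bleomycin the 1 locus, AT1G64795, met the rule again, and 4 of the 10 did, namely SCL5, SCL21, AT2G04900 and AT5G33390. Among single transcripts with a limit of 30 reads, 16 were present in the triple mutant alone and 50 in Col-0 alone on control medium. The pattern returned on bleomycin for 1 of the 16, AT1G64795.1, and for 4 of the 50, the main transcripts of SCL5 and SCL21 and both transcripts of AT2G04900. ILA transcript 2, also among the 16, missed the rule on bleomycin through 30 reads in Col-0 library 1. It had 4124, 4392 and 3872 reads in the triple mutant there.

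DOF3.4, ERF115 and CYCD3;3 were not called on control medium. For DOF3.4 (AT3G50410) the triple mutant libraries held 12, 22 and 0 reads, against 2, 0 and 0 in Col-0. The groups overlapped at 0, and the ratio of 34 reads to 2 came to 17.8 (95% interval 4.57 to 153.2, exact, counting error only). Both Col-0 reads were in library 1, and leaving out 1 library gave log2 fold changes of 3.12 to 6.57. DOF3.4 was not called (log2 fold change 3.94, SE 1.45, unadjusted p = 0.0177, edgeR adjusted p = 0.96). ERF115 (AT5G07310) had 0 reads in all 3 triple mutant libraries and 2, 3 and 5 reads in Col-0. With 3 reads as the floor that is 3.18-fold lower in the triple mutant, without the counting error of the few Col-0 reads. ERF115 was not called either (unadjusted p = 0.00447, edgeR adjusted p = 0.96). On bleomycin DOF3.4 lay the other way, at 0.357, 0.123 and 0.276 CPM in the triple mutant, against 1.13, 2.25 and 1.39 CPM in Col-0, and the interaction was not called (unadjusted p = 0.00396, edgeR adjusted p = 1.00). In Col-0 on control medium DOF3.4 was under the limit that 3 reads allow, 0.0734 to 0.0819 CPM in 1 Col-0 library.

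CYCD3;3 (AT3G50070) was well expressed, with 29.6, 34.2 and 30.7 CPM in the triple mutant, against 26.0, 31.2 and 37.4 CPM in Col-0. The libraries of the genotypes overlapped. Its difference had a 95% interval of -0.34 to 0.33 on the log2 scale (SE 0.16, edgeR adjusted p = 1.00).

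Of 31 GRAS genes, 29 were tested and 3 were called, all lower: SCL5, SCL21 and PAT1, the genes that the genotype label names as mutated. Of the other 26 tested, edgeR called 0, 1 had an unadjusted p under 0.05, and log2 fold changes ran from -0.33 to 0.58 with a median of -0.01. SCL1, SCL8 and SCL13, further members of the PAT1 branch that are intact in the triple mutant, are named for that role. SCL1 had 25.9, 27.0 and 30.2 CPM in the triple mutant, against 33.8, 24.5 and 22.5 CPM in Col-0. SCL8 had 40.8, 36.1 and 32.8 CPM in the triple mutant, against 44.7, 32.3 and 30.5 CPM in Col-0.

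SCL13, a positive factor in phytochrome B light signalling in Arabidopsis, had 28.2, 32.7 and 45.7 CPM in the triple mutant, against 43.5, 33.4 and 31.2 CPM in Col-0. All 3 of these genes overlapped between genotypes, and their 95% intervals on the log2 scale were -0.33 to 0.41 for SCL1, -0.33 to 0.39 for SCL8 and -0.48 to 0.44 for SCL13. RGL1, a DELLA repressor of gibberellin responses, had the highest value among the other GRAS genes, with 7, 7.34 and 7.19 CPM in the triple mutant, against 4.57, 5.86 and 3.93 CPM in Col-0 (log2 fold change 0.58, SE 0.26, unadjusted p = 0.0403, edgeR adjusted p = 0.96).

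Beyond the GRAS family, 36 further lists of pathway and cell type genes held no called member. Over all 37 lists 649 genes were tested, 3 were called, and 45 (6.93%) had an unadjusted p under 0.05, against 4.8% of all genes tested. The 45 include the 3 mutated genes, and the lists were chosen with earlier results of these data known, so the 2 shares are not a fair comparison. List medians on the log2 scale ran from -0.25 to 0.28, with 22 of the 37 within 0.1 of 0, and the median of all genes was -0.01. Without triple mutant library 3 the medians ran from -0.30 to 0.47, and that value is given below where it differs by more than 0.1 or is of the other sign. The 2 genes of each list with the largest difference at a mean of at least 2 CPM are named below. None of them was called by edgeR, so their values are given as such, in CPM, as mean ± SD.

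**Figure D4:**
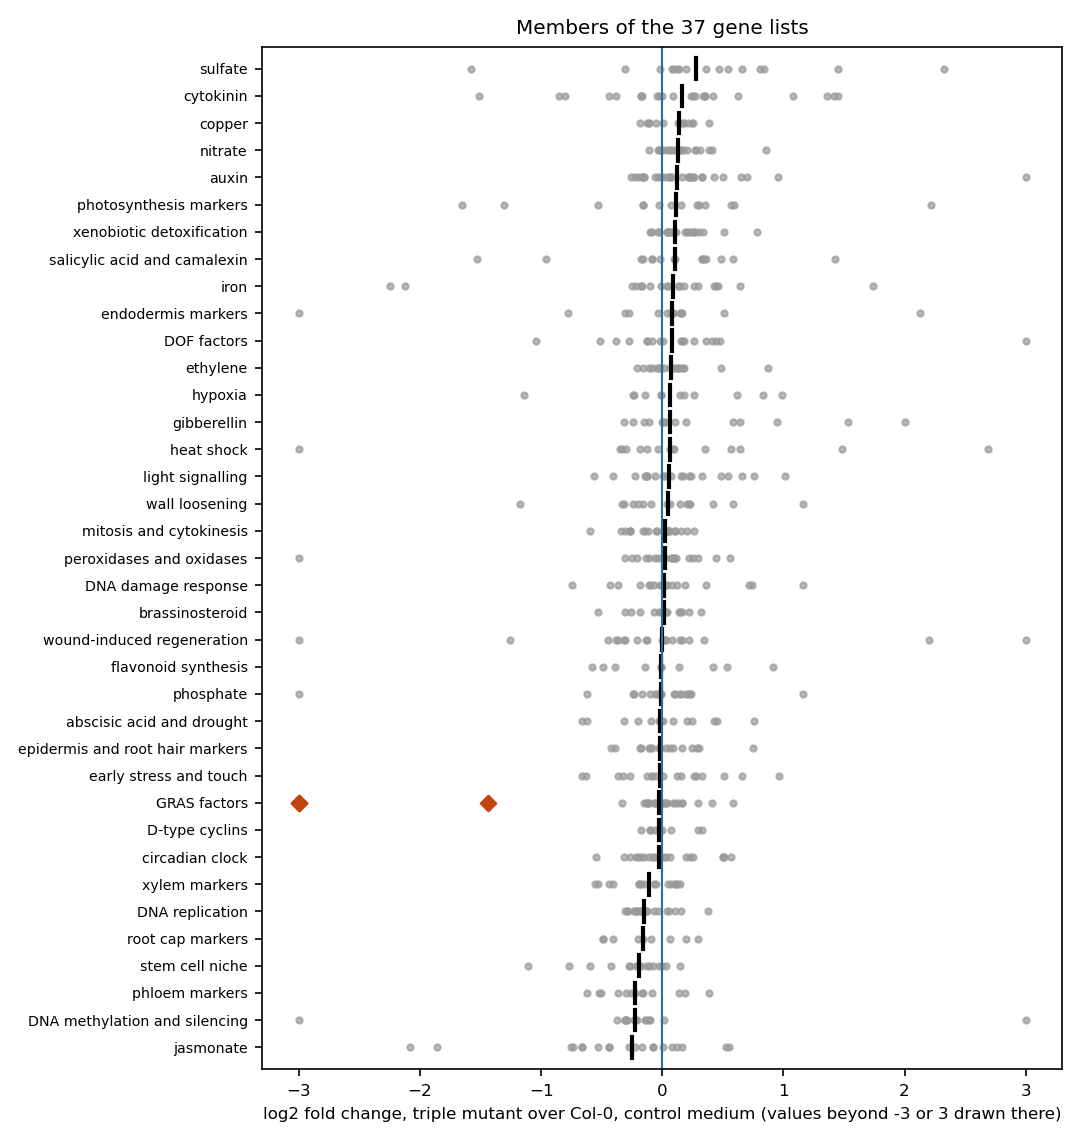
Log2 fold change of the triple mutant over Col-0 on control medium for the tested members of the 37 gene lists (1 point a gene; values beyond -3 or 3 are drawn there), with the median of each list as a black bar and the median of all genes as a blue line. Red diamonds mark the called members, which are all GRAS factors (SCL5, SCL21 and PAT1).

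The DOF list had 18 of 19 members tested and a median of 0.08. In it OBP4, a DOF factor that restrains cell division and root growth, was at 13.5 ± 3.8 in the triple mutant and 9.71 ± 1.2 in Col-0, and PEAR2, a phloem DOF factor, at 3.21 ± 1.1 in the triple mutant and 4.58 ± 0.96 in Col-0. The list of wound-induced regeneration had 21 of 25 members tested and a median of 0.00. PLT3, a PLETHORA factor that takes part in regeneration, was at 67.8 ± 13 in the triple mutant and 84.0 ± 11 in Col-0. ERF109, a jasmonate-responsive ethylene response factor of wounded roots, was at 6.05 ± 5.6 in the triple mutant and 7.89 ± 1.6 in Col-0.

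The stem cell niche list (17 of 18 tested) had a median of -0.19, and 2 of the 17 lay above 0, against 49.0% of all genes. Its summed level over all 18 genes was 421 to 485 CPM in the triple mutant, against 469 to 528 CPM in Col-0. RGF1, a peptide that sustains PLETHORA levels in the meristem, was at 1.35 ± 0.98 in the triple mutant and 2.93 ± 0.46 in Col-0, and BRAVO, a MYB factor of the quiescent centre, at 1.79 ± 0.54 in the triple mutant and 3.04 ± 0.87 in Col-0. RGF1 was at 2.06, 1.77 and 0.233 CPM in triple mutant libraries 1 to 3, and BRAVO at 2.11, 2.08 and 1.16 CPM. Without triple mutant library 3 the median of the list was -0.23.

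Cell cycle genes showed no called difference. The D-type cyclins (9 of 10 tested) had a median of -0.03, with CYCD4;1 at 11.6 ± 3.5 in the triple mutant and 9.22 ± 1.3 in Col-0, and CYCD6;1, a cyclin of formative divisions, at 2.34 ± 0.54 in the triple mutant and 1.9 ± 0.68 in Col-0. The cyclin median was 0.02 without triple mutant library 3. Genes of mitosis and cytokinesis (25 tested) had a median of 0.02. POK1, a kinesin that positions the division plane, was at 27.0, 25.4 and 15.7 CPM in the triple mutant, against 33.5, 35.9 and 33.6 CPM in Col-0 (log2 fold change -0.60, SE 0.17, unadjusted p = 0.00454, edgeR adjusted p = 0.96). CYCA1;1, an A-type cyclin, was at 10.8 ± 3.3 in the triple mutant and 13.7 ± 1.3 in Col-0. Genes of DNA replication (18 tested) had a median of -0.15, with MCM2, a subunit of the replicative helicase, at 32.2 ± 12 in the triple mutant and 39.9 ± 0.66 in Col-0, and ORC1A, an origin recognition subunit, at 5.10 ± 0.83 in the triple mutant and 3.92 ± 1.4 in Col-0. MCM2 was at 34.3, 43 and 19.4 CPM in triple mutant libraries 1 to 3, and CYCA1;1 at 12.4, 13.1 and 7.01 CPM. Without triple mutant library 3 the medians of the mitosis and replication lists were -0.04 and -0.05. The DNA damage response (18 tested) had a median of 0.02. GMI1, a damage-induced structural maintenance protein gene, was at 4.21 ± 1.8 in the triple mutant and 2.56 ± 0.85 in Col-0, and ANAC044, a NAC factor of the damage checkpoint, at 3.53 ± 2.5 in the triple mutant and 2.11 ± 1.4 in Col-0.

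Summed by list, markers of the cell types of the tip had reads in every control library of both genotypes. Of the 88 root marker genes in the lists of root cap, epidermis, endodermis, xylem, phloem and stem cell niche, none was at 0 in all 6 control libraries. That count pools the genotypes and does not show each gene in each of them. Root cap markers (9 tested, median -0.16) summed to 271 to 344 CPM in the triple mutant, against 326 to 382 CPM in Col-0. ARF16, an auxin response factor of the root cap, was at 24.8, 24.3 and 21.0 CPM in the triple mutant, against 32.5, 29.0 and 37 CPM in Col-0 (log2 fold change -0.49, SE 0.13, unadjusted p = 0.00267, edgeR adjusted p = 0.96). The ARF16 libraries did not overlap between genotypes, as was so for 11.2% of all genes tested in either direction.

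FEZ, a NAC factor of root cap stem cell divisions, was at 4.7 ± 2.1 in the triple mutant and 6.58 ± 0.53 in Col-0. Triple mutant libraries 1 to 3 had 6.08, 5.72 and 2.28 CPM.

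Epidermis and root hair markers (18 tested, median -0.02) summed to 566 to 857 CPM in the triple mutant, against 630 to 771 CPM in Col-0. RSL4, a basic helix-loop-helix factor of root hair growth, was at 24.5 ± 9.1 in the triple mutant and 14.5 ± 3.6 in Col-0, and GL2, which marks hairless epidermal files, at 31.6 ± 4.1 in the triple mutant and 42.3 ± 2.3 in Col-0. The epidermis median was 0.07 without triple mutant library 3. Endodermis markers (14 tested, median 0.08) summed to 367 to 609 CPM in the triple mutant, against 285 to 722 CPM in Col-0. ESB1, a dirigent protein of the Casparian strip, was at 26.3, 12.6 and 0 CPM in the triple mutant, against 30.6, 14.5 and 21.4 CPM in Col-0, and its 0 was in triple mutant library 3. CIF2, a peptide that guides Casparian strip formation, was at 7.36 ± 2.3 in the triple mutant and 5.17 ± 2.4 in Col-0.

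Xylem markers (16 tested, median -0.11) summed to 335 to 351 CPM in the triple mutant, against 359 to 419 CPM in Col-0. CESA8, a cellulose synthase of secondary walls, was at 7.42 ± 1.1 in the triple mutant and 10.7 ± 3.8 in Col-0, and TMO5, a vascular helix-loop-helix factor, at 8.74 ± 2.7 in the triple mutant and 11.8 ± 0.44 in Col-0. TMO5 was at 10.5, 10 and 5.64 CPM in triple mutant libraries 1 to 3. Phloem markers (13 tested, median -0.22) summed to 71.3 to 81.0 CPM in the triple mutant, against 77.4 to 84.9 CPM in Col-0. SMXL4 and SMXL5, which act in phloem formation, were at 3.26 ± 0.98 and 8.58 ± 1.3 in the triple mutant, and at 4.64 ± 1.5 and 10.6 ± 2.4 in Col-0. Photosynthesis markers (14 of 16 tested, median 0.11) summed to 80.6 to 144 CPM in the triple mutant, against 75.5 to 143 CPM in Col-0, and 2 of the 16 were at 0 in all 6 control libraries. PSAD1, a subunit of photosystem I, was at 7.81 ± 1.6 in the triple mutant and 5.18 ± 2.1 in Col-0, and RCA, which activates Rubisco, at 4.91 ± 2.2 in the triple mutant and 3.3 ± 2.7 in Col-0. The photosynthesis median was 0.42 without triple mutant library 3.

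Light signalling is the process PAT1 is named for. That list (22 of 23 tested) had a median of 0.06. ELIP1 and ELIP2, light-induced chloroplast proteins, were at 20.3 ± 6.7 and 8.95 ± 3.5 in the triple mutant, and at 10.1 ± 2.4 and 5.68 ± 1.1 in Col-0. ELIP1 had the largest difference of the list at 2 CPM or more (log2 fold change 1.01, SE 0.44, unadjusted p = 0.041, edgeR adjusted p = 0.96). Flavonoid synthesis (10 of 16 tested) had a median of -0.01, with MYB12, a flavonol regulator, at 14.1 ± 4.7 in the triple mutant and 7.51 ± 2.5 in Col-0, and TT7, a flavonoid hydroxylase, at 4.57 ± 0.70 in the triple mutant and 3.16 ± 1.8 in Col-0. The flavonoid median was -0.30 without triple mutant library 3, the lowest of the 37 lists in that setting. The circadian clock list (21 tested) had a median of -0.03, with BOA, a clock transcription factor, at 6.36 ± 1.7 in the triple mutant and 9.31 ± 0.89 in Col-0, and FKF1, a blue light receptor of the clock, at 15.3 ± 7.4 in the triple mutant and 10.3 ± 5 in Col-0. The clock median was 0.17 without triple mutant library 3.

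Hormone lists had medians on both sides of 0. Auxin genes (30 tested) had a median of 0.12, and 6 of the 30 had an unadjusted p under 0.05. For 8 of them every triple mutant library lay above every Col-0 library, as was so for 4.68% of all genes tested, and for 1 every triple mutant library lay below, as for 6.49% of all genes. YUC9, an enzyme of auxin synthesis, was at 8.2, 5.78 and 11.4 CPM in the triple mutant, against 3.07, 4.79 and 5.24 CPM in Col-0 (log2 fold change 0.95, SE 0.42, unadjusted p = 0.0418, edgeR adjusted p = 0.96). GH3.6, an auxin-conjugating enzyme, was at 11.1 ± 1.7 in the triple mutant and 6.8 ± 2.1 in Col-0. On bleomycin the median of the auxin list was -0.04, and without triple mutant control library 3 it was 0.04 on control medium.

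Cytokinin genes (24 of 25 tested) had a median of 0.16, and 6 lay above all Col-0 libraries in all triple mutant libraries and 2 below, against 4.68% and 6.49% of all genes tested. On bleomycin the median of the cytokinin list was -0.07. ARR5, a type-A response regulator, was at 28.5, 38.8 and 38 CPM in the triple mutant, against 16.3, 28.5 and 23.3 CPM in Col-0, and the genotypes meet at 28.5. LOG3, a cytokinin-activating enzyme, was at 2.16 ± 1.3 in the triple mutant and 3.77 ± 0.82 in Col-0. Ethylene genes (18 of 20 tested) had a median of 0.08, with the response factors ERF5 and ERF6 at 42.3 ± 15 and 57.6 ± 14 in the triple mutant and at 23.1 ± 6.6 and 41.0 ± 6.7 in Col-0. The ethylene median was -0.04 without triple mutant library 3. Jasmonate genes (20 of 22 tested) had the lowest median of all lists over the 6 libraries, -0.25, and -0.17 without triple mutant library 3, with the repressors JAZ2 and JAZ10 at 14.9 ± 4.4 and 3.1 ± 0.96 in the triple mutant and at 24.9 ± 3.7 and 4.91 ± 2.6 in Col-0.

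Gibberellin genes (14 of 16 tested) had a median of 0.06, with GA3OX1, an enzyme that makes active gibberellin, at 11.1 ± 0.68 in the triple mutant and 13.9 ± 1.5 in Col-0, and GA2OX6, which inactivates it, at 6.51 ± 0.93 in the triple mutant and 4.33 ± 1.9 in Col-0. The gibberellin median was 0.17 without triple mutant library 3. Brassinosteroid genes (14 tested) had a median of 0.01. BES1, a brassinosteroid-activated transcription factor, was at 61.9 ± 15 in the triple mutant and 49.6 ± 8.1 in Col-0, and the receptor gene BRI1 at 136 ± 10 in the triple mutant and 168 ± 10 in Col-0. Abscisic acid and drought genes (16 of 20 tested) had a median of -0.02, with NCED3, an enzyme of abscisic acid synthesis, at 7.87 ± 2.8 in the triple mutant and 4.66 ± 2.0 in Col-0, and RD29A, a drought-induced gene, at 12.5 ± 4 in the triple mutant and 9.13 ± 9.2 in Col-0. The abscisic acid median was 0.01 without triple mutant library 3. Genes of salicylic acid and camalexin (16 of 20 tested) had a median of 0.10, with WRKY33, a defence regulator, at 106 ± 39 in the triple mutant and 75.8 ± 7.8 in Col-0, and MYB51, a regulator of indole glucosinolates, at 7.29 ± 2 in the triple mutant and 4.86 ± 2.1 in Col-0. The salicylic acid median was -0.03 without triple mutant library 3. Early stress and touch genes (18 tested) had a median of -0.02, with TCH4, a touch-induced wall enzyme, at 19.6 ± 8.1 in the triple mutant and 30.3 ± 1.8 in Col-0, and WRKY53, a stress-induced transcription factor, at 37.3 ± 17 in the triple mutant and 23.65 ± 3.4 in Col-0. The stress and touch median was -0.17 without triple mutant library 3.

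Sulfate genes (16 tested) had the highest median of all lists, 0.28, and 0.47 without triple mutant library 3, and 13 of the 16 lay above 0. APR1, the reductase of sulfate assimilation, was at 15.2 ± 4.6 in the triple mutant and 11.0 ± 2.8 in Col-0, and SDI2, induced by sulfur deficiency, at 10.5 ± 3 in the triple mutant and 8.14 ± 2.3 in Col-0. Nitrate genes (20 of 22 tested) had a median of 0.13, with LBD38, a nitrogen-responsive repressor, at 75.4, 68.9 and 71.1 CPM in the triple mutant, against 53.6, 59.5 and 49.2 CPM in Col-0 (log2 fold change 0.41, SE 0.14, unadjusted p = 0.0124, edgeR adjusted p = 0.96). NIA1, a nitrate reductase, was at 19.2 ± 12 in the triple mutant and 14.7 ± 8.3 in Col-0. Copper genes (14 of 15 tested) had a median of 0.14, with FSD1, an iron superoxide dismutase that marks copper supply, at 132 ± 53 in the triple mutant and 101 ± 52 in Col-0, and YSL2, a metal-nicotianamine transporter, at 11.9 ± 2.3 in the triple mutant and 10 ± 4 in Col-0. Iron genes (20 of 25 tested) had a median of 0.09, with FRO2, the ferric reductase of the root surface, at 6.08 ± 3.1 in the triple mutant and 4.48 ± 1.2 in Col-0, and BHLH39, a regulator of iron uptake, at 2.73 ± 0.83 in the triple mutant and 1.99 ± 2.1 in Col-0. The iron median was -0.002 without triple mutant library 3. Phosphate genes (20 of 22 tested) had a median of -0.01, with MGD2, a galactolipid synthase, at 4.62 ± 2.8 in the triple mutant and 7.08 ± 1.4 in Col-0, and SPX2, a phosphate sensor, at 18.5 ± 2.4 in the triple mutant and 15.7 ± 0.71 in Col-0. The phosphate median was 0.01 without triple mutant library 3.

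Xenobiotic detoxification (22 of 23 tested) had a median of 0.10, and 18 of the 22 lay above 0. GSTU5, a glutathione transferase, was at 9.63, 8.67 and 15.5 CPM in the triple mutant, against 5.52, 6.99 and 7.15 CPM in Col-0 (log2 fold change 0.78, SE 0.28, unadjusted p = 0.0142, edgeR adjusted p = 0.96). CYP81D8, a cytochrome P450 of the detoxification response, was at 15.4 ± 1.8 in the triple mutant and 10.8 ± 5.1 in Col-0. Heat shock genes (15 of 19 tested) had a median of 0.06, with HSP70, a chaperone, at 6.85 ± 2.7 in the triple mutant and 5.34 ± 1.9 in Col-0, and MBF1C, a heat-induced coactivator, at 2.37 ± 0.99 in the triple mutant and 2.98 ± 0.51 in Col-0. Hypoxia genes (12 of 14 tested) had a median of 0.07, and 0.19 without triple mutant library 3. HB1, a haemoglobin induced by low oxygen, was at 10.8 ± 4.4 in the triple mutant and 6.08 ± 0.82 in Col-0, and HRE2, a hypoxia-responsive ethylene response factor, at 3.98 ± 1.2 in the triple mutant and 2.59 ± 2.5 in Col-0. Wall loosening genes (16 tested) had a median of 0.05. EXPA1, an expansin that loosens cell walls, was at 54.3, 39.8 and 35.7 CPM in the triple mutant, against 17.1, 21.8 and 19.4 CPM in Col-0, with no overlap (log2 fold change 1.16, SE 0.33, unadjusted p = 0.00386, edgeR adjusted p = 0.96). Every triple mutant library likewise lay above every Col-0 library for 4.68% of all genes tested. On bleomycin the EXPA1 libraries overlapped, with 30.2, 74.4 and 42.5 CPM in the triple mutant and 21.7, 44.6 and 49.0 CPM in Col-0.

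EXPA14, another expansin, was at 125 ± 2.7 in the triple mutant and 83.2 ± 19 in Col-0.

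Peroxidases and oxidases (21 of 22 tested) had a median of 0.02, with PRX40, a class III peroxidase, at 33.6 ± 6.5 in the triple mutant and 22.8 ± 1.7 in Col-0, and PRX34, another peroxidase, at 10.5 ± 6.6 in the triple mutant and 7.75 ± 6.3 in Col-0. Genes of DNA methylation and silencing (15 of 16 tested) had a median of -0.23, and 2 of the 15 lay above 0. QQS, an orphan gene under epigenetic control, had the largest difference of the list at 2 CPM or more (-6.07 on the log2 scale with SE 1.29 and an edgeR adjusted p of 0.52). Its values by library are given with the loci called by DESeq2. DME, a DNA glycosylase that removes methylcytosine, was at 67.2, 69.4 and 61.4 CPM in the triple mutant, against 94.3, 81.1 and 81.0 CPM in Col-0 (log2 fold change -0.37, SE 0.13, unadjusted p = 0.0152, edgeR adjusted p = 0.96). In that list 6 genes lay below all Col-0 libraries in all triple mutant libraries, against 6.49% of all genes tested. Without triple mutant library 3 the median was -0.16.

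DESeq2 called 24 of 21544 genes (0.111%), 8 higher and 16 lower, which included the 6 called by edgeR. The 18 others are named after their values were seen. AT5G35940, a mannose-binding lectin gene, was at 35.8, 28.6 and 35.5 CPM in the triple mutant, against 63.6, 90.5 and 103 CPM in Col-0 (log2 fold change -1.36, SE 0.26, edgeR adjusted p = 0.301). It was called on bleomycin by edgeR (log2 fold change -2.03, adjusted p = 0.0141). CLE5, which encodes a signalling peptide of the CLAVATA3 family, was at 32.4, 24.3 and 31.6 CPM in the triple mutant, against 18.4, 17.9 and 12.8 CPM in Col-0. On bleomycin CLE5 was at 13.3, 15.2 and 15.2 CPM in the triple mutant and 6.71, 8.12 and 6.89 CPM in Col-0, again with no overlap. On control medium 4.68% of all genes tested lay higher in the triple mutant with no overlap.

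At some of these loci Col-0 library 1 stood apart from Col-0 libraries 2 and 3 in both media. AT4G04223, annotated as other RNA, was at 0.80, 0.83 and 1.11 CPM in the triple mutant, against 5.4, 46.7 and 41.3 CPM in Col-0. Col-0 bleomycin libraries had 5.53, 44.5 and 39.3 CPM. AT5G38005, another RNA of unknown function, was at 2.03, 1.93 and 2.12 CPM in the triple mutant, against 4.44, 22.6 and 22.3 CPM in Col-0, and Col-0 bleomycin libraries had 4.86, 20.6 and 16.7 CPM. AT5G15360 had 0 reads in every triple mutant control library, against 0.0245, 1.24 and 1.71 CPM in Col-0, and Col-0 bleomycin libraries had 0.3, 1.34 and 1.37 CPM. Without Col-0 control library 1, AT4G04223 and AT5G38005 were called by edgeR (adjusted p = 0.00555 for AT4G04223 and 0.0216 for AT5G38005).

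QQS, an Arabidopsis orphan gene that affects the split of carbon and nitrogen between starch and protein, went the other way in Col-0 library 1. It was at 0.257, 0.052 and 0 CPM in the triple mutant, against 14.9, 2.96 and 2.95 CPM in Col-0, and Col-0 bleomycin libraries had 15.3, 2.05 and 0.94 CPM. SADHU3-2, a non-coding retrotransposon locus that natural accessions may silence by methylation, was at 0, 0.078 and 0 CPM in the triple mutant, against 5.65, 1.61 and 1.84 CPM in Col-0, and Col-0 bleomycin libraries had 7.23, 2.05 and 1.13 CPM. Every triple mutant library lay below every Col-0 library of the same medium at these 5 loci. On control medium the same was so for 6.49% of all genes tested, and these loci were chosen by their DESeq2 call on those libraries. At AT5G15360 it rests on 1 read in Col-0 control library 1.

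**Figure D5:**
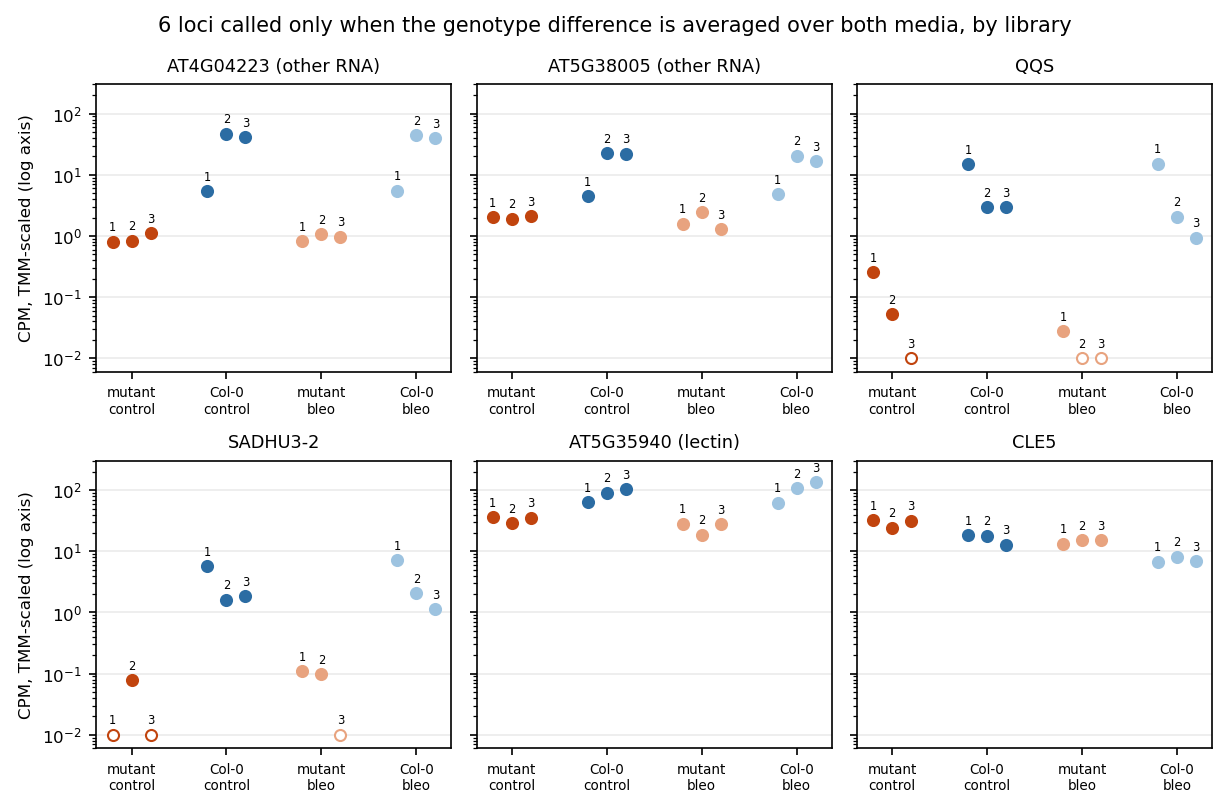
CPM (log axis) in each library, numbered 1 to 3, of 6 of the 7 loci that edgeR called in the average over both media and not on control medium. The word only in the title has that sense: AT5G35940 was also called by edgeR on bleomycin, and DESeq2 called these loci on control medium. Open circles mark 0 reads. At AT4G04223 and AT5G38005 Col-0 library 1 is the lowest Col-0 library in both media, and at QQS and SADHU3-2 it is the highest.

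When the genotype difference was averaged over control and bleomycin in the same edgeR fit, 13 of 21561 genes (0.0603%) were called, 2 higher (0.00928%) and 11 lower (0.051%). These were the 6 called on control medium and AT5G35940, AT4G04223, CLE5, AT5G33390, SADHU3-2, QQS and AT5G38005, with adjusted p between 0.00168 and 0.0136 for the 7 added. This average shares its control libraries with the comparison above.

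The other 11 loci that DESeq2 and not edgeR called on control medium were not called in the average. UGT76D1, a glucosyltransferase gene, was at 2.91, 3.15 and 3.47 CPM in the triple mutant on control medium, against 0.78, 0.59 and 0.58 CPM in Col-0. On bleomycin it was at 2.55, 6.05 and 2.26 CPM in the triple mutant and 2.6, 4.33 and 3.16 CPM in Col-0, so the genotypes overlapped. AT5G19097, a pseudogene, had 0 reads in the triple mutant on control medium and 2.90, 4.11 and 3.07 CPM in Col-0, and on bleomycin 1.92, 3.85 and 1.56 CPM in the triple mutant and 2.65, 0 and 2.92 CPM in Col-0. AOX1C, an alternative oxidase of mitochondria, had 0 reads in the triple mutant and 0.07, 0.43 and 0.30 CPM in Col-0 on control medium. At the floor of 3 reads that is 9.85-fold lower, without the counting error of the few Col-0 reads. On bleomycin AOX1C was at 4.50, 2.94 and 4.19 CPM in the triple mutant and 4.46, 2.48 and 4.43 CPM in Col-0. The remaining 8 were RHA2A, AT1G20070, AT3G55720, AT3G59850, AT3G61810, AT4G34071, AT5G15360 and AT5G62420.

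Transposable element loci, tested beside the genes, gave 0 calls of 362 by edgeR, with 31 (8.56%) at an unadjusted p under 0.05, and 3 of 358 by DESeq2 (0.838%).

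The width of the intervals sets what these libraries could show. The median 95% interval of a log2 fold change reached 0.45 to either side, a factor of 1.37. It was 0.28 (a factor of 1.22) for the 4485 genes over 50 CPM, 0.36 (1.28) for the 8068 genes from 10 to 50 CPM, 0.70 (1.62) for the 4645 genes from 2 to 10 CPM and 2.29 (4.89) for the 4363 genes under 2 CPM. These intervals are not adjusted for the number of genes tested, and a call over 21561 genes needed a larger difference: EXPA14, at a log2 fold change of 0.58 and 104 CPM, was not called (edgeR adjusted p = 0.96).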

How the data were processed

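Each library has 1 deposited table of 88971 transcripts from Salmon 0.9.1, which the submitters' processing notes name beside CASAVA. Per the file headers each transcript has an estimated count (not always whole), a TPM value deposited by the authors, and 2 other columns deposited by the authors, its length and effective length. The sources used here give no options, build or annotation. Transcript lengths equalled those of RefSeq TAIR10.1 for 45082 of 56554 matched transcripts, so that annotation was used for names, strands and overlaps, and no coordinates are printed. RNA came from a QIAGEN RNeasy kit and a NEBNext Ultra library kit, per the labels' protocols.

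Estimated counts were summed per locus and rounded. Transposable element loci were tested apart. One model over all 12 libraries (edgeR 4.0.16, R 4.3.3, quasi-likelihood F test, TMM, filterByExpr, group as the only term, Benjamini-Hochberg at 0.05) had a common biological coefficient of variation of 0.30. Alternatives included DESeq2 1.42.0 and limma 3.58.1. The fitting code was tested on simulated data. Floors are 3 reads over a group and leave out the counting error of the other group. Intervals of read ratios are exact and cover counting error only. The SE of a log2 fold change is its absolute value over the square root of the F statistic. Where a group has 0 or few reads, the fold change and its SE depend on the fit.

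The members and the 37 lists (705 entries, 649 under the same name in RefSeq) were chosen with earlier results of these data known. Named genes are the 3 mutated genes, DOF3.4, ERF115 and CYCD3;3, called genes with a mean of at least 2 CPM and no overlap (up to 15 in each direction), up to 4 called members of each list or, with none called, up to 2 with the largest difference at 2 CPM or more, and called neighbours within 25 loci of a mutated gene. The labels call the replicates biological and give no separate cultures, so the p-values cover only how these samples vary, which may be technical. Deviations of same-numbered triple mutant and Col-0 libraries correlated on bleomycin (r = 0.472, 0.236 and 0.282 over genes), by which the numbers pair the bleomycin libraries; on control medium they fell short of that.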

Additional observations from a re-analysis of the deposited data

How the results depend on the processing

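Under the 15 alternatives to the comparison on control medium, 4 to 9 genes were called in all but 1, against 6. DESeq2 called 24. Leaving out 1 control library gave 4 to 9 called genes, with 4 without any library other than Col-0 1 and 9 without Col-0 1. SCL5, SCL21 and AT2G04900 were called under all 15 and AT1G64795 under 14, all but limma voom (adjusted p = 0.871). PAT1 was called under 9 and AT5G33395 under 6. Of the genes called in control, 4 to 6 were called on bleomycin under the alternatives, and 5 to 6 when 1 bleomycin library was left out. In all, 6 genes were called on bleomycin, 10 with the replicate block, 22 by DESeq2 and 5 to 8 when 1 bleomycin library was left out. The gene lists held 2 to 3 called members, all mutated genes, when 1 control library was left out. DESeq2 and limma voom called 0 of these genes for the interaction. On control medium the replicate block gave 8 calls (1 higher and 7 lower, with QQS and AT4G04223 added). Same-numbered control libraries of the genotypes had correlated deviations of 0.154, 0.062 and 0.116, so not every pair passed 0.1, though each library correlated best with its own number; this is a hint from the data, not the design.

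Of the values of single named genes under these alternatives, 1474 kept direction and side of the threshold, 25 passed it in place of missing it, 16 missed it and 25 changed sign, none of the last in a called gene. CYCD3;3, at -0.0004 in the fit reported, was at 0.00968 by DESeq2, 0.0148 by limma voom, 0.00963 with RLE size factors, 0.00201 with no filter, 0.00328 with the control libraries alone, 0.012 with the replicate block and 0.0012 without ribosomal and organelle loci. SCL13 was at 0.00666 with a length offset. Leaving out 1 control library in turn gave log2 fold changes of -0.121 to 0.139 for CYCD3;3, -0.239 to 0.139 for SCL13, -0.0742 to 0.239 for SCL1, -0.0745 to 0.221 for SCL8, -0.0155 to 1.26 for ANAC044, -0.0381 to 1.83 for BHLH39, -0.0603 to 0.687 for FRO2, -0.182 to 0.897 for NIA1 and -0.17 to 1.35 for PRX34. FRO2, NIA1 and PRX34 changed sign without triple mutant library 3. The cause was not tested. Depth limits genes under 2 CPM, DOF3.4 and ERF115 among them.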
